A study of Mus musculus with 6 samples.

Results

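NRF2 targets and antioxidant enzymes are described here in mouse bone marrow cells, labelled as hematopoietic stem cells, with and without a deletion of Ppp2ca. The 10 genes are the rows with the symbols Gclc, Gclm, Gsr, Txnrd1, Srxn1, Nqo1, Hmox1, Prdx1, Prdx2 and Cat among 52550 genes in the files, and each symbol had 1 row. The first 7 are described as NRF2 targets and the last 3 as peroxide-removing enzymes. Poly(A) RNA was sequenced in 3 wild-type (WT) and 3 knockout (KO) libraries. The labels give the WT genotype as Ppp2caf/f, floxed alleles of the catalytic subunit gene of protein phosphatase 2A with no Cre named, and the KO genotype as VAV1crePpp2caf/f, the same alleles with Cre recombinase under Vav1 control, which acts in blood cells. Effects of Cre itself and of the deletion cannot be told apart in this design, and the labels give no age, treatment or sorting markers. Whether each library is from an animal of its own is not stated, and the p-values therefore cover only the spread between these 6 libraries, which may be technical.

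NRF2, the product of Nfe2l2, is a transcription factor that binds antioxidant response elements together with small MAF proteins. In unstressed cells KEAP1 holds it and hands it to a CUL3 ubiquitin ligase for degradation, and oxidants or electrophiles release it. Its targets make and recycle glutathione, supply and use NADPH, and break down heme, while peroxiredoxins and catalase remove hydrogen peroxide. Hematopoietic stem cells are known to be sensitive to reactive oxygen species, and granule-forming myeloid cells and red cell precursors carry abundant antioxidant enzymes.

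Between 37951985 and 58692037 reads fell on genes in each library, worked back from the values that the authors deposited. Levels are normalised read counts, which are reads divided by a size factor for each library, and the KO values summed on average to 110.4% of the WT sum. Ppp2ca itself ranged from 32909 to 33451 in WT and from 22419 to 24046 in KO, so that KO kept 70.5% of the WT level over the whole gene. Of 10 stem cell markers, 9 were lower in KO and Ly6a did not pass the test, with summed levels of 36855 to 46689 in WT and 17454 to 22168 in KO. Kit alone held most of this sum in every library and kept 63.4% of its WT mean in KO. The median log2 fold change (KO over WT) over the 10 markers was −2.22. All 7 granulocyte-monocyte progenitor markers were higher, with sums of 1250020 to 1480920 in WT and 1863540 to 2080260 in KO. In bulk RNA, fewer cells of a type and less RNA per cell cannot be told apart, and this holds for every difference below.

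The 10 genes did not move as a block. In KO, 3 NRF2 targets were higher (Gsr, Gclm and Txnrd1), 3 NRF2 targets were lower (Srxn1, Nqo1 and Hmox1), and 2 of the 3 peroxide-removing enzymes were lower (Prdx2 and Cat), while Gclc and Prdx1 did not pass the test (limma, Benjamini-Hochberg adjusted p under 0.05 over all genes). Over all 20136 genes tested, 10.3% were higher, 13.0% lower and 23.3% in either group, and 31.5% passed among those whose mean reached 100, which all 10 genes do. The groups of 3 libraries did not overlap in 8 of the 10 genes, against 40.9% of all genes tested and 51.2% of those with a mean of 100 or more. Without KO replicate 3 the genes higher over all numbered 993 and those lower 1714, and without WT replicates 1, 2 and 3 those lower numbered 1565, 1639 and 1602, against 2069 higher and 2622 lower with all libraries. Of the 10 genes, those lower numbered 3 without KO replicate 1, 1 without KO replicate 3, 2 without WT replicate 2 and 1 without WT replicate 3. The median log2 fold change (KO over WT) was −0.48 over the 7 NRF2 targets and −0.41 over the 3 peroxide-removing enzymes, beside −0.02 over all genes tested. The first of these medians is the value of Gclc, and it was −0.17 without KO replicate 2 and −0.71 without KO replicate 1. Prdx1 is also widely listed as an NRF2 target, and with it moved to that group the medians were −0.05 and −0.42. None of the 10 genes changed direction in any of 19 alternative analyses.

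**Figure D1:**
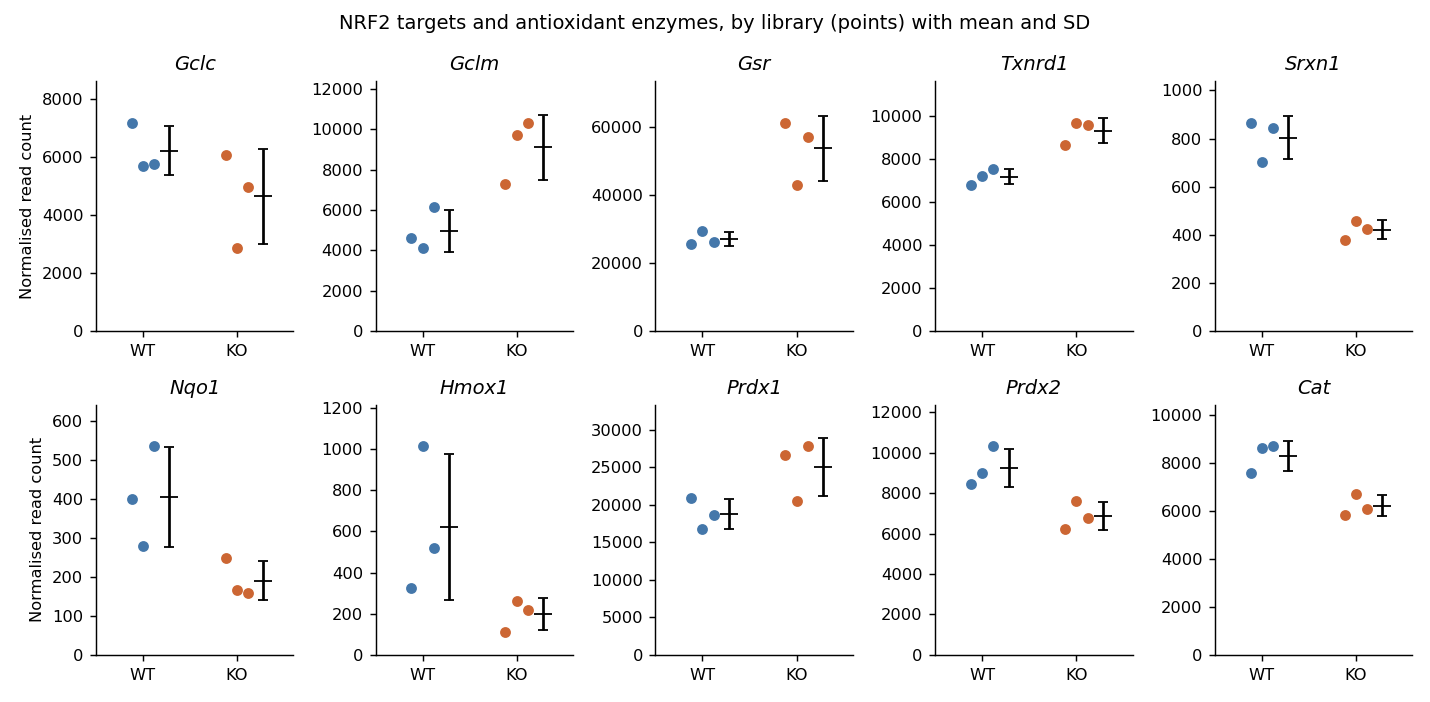
Normalised read counts (vertical axes, each from 0) of the 10 genes in 3 WT and 3 KO libraries, shown as points, with the group mean and SD as a bar beside them. The groups overlap in Gclc and Prdx1 and are apart in the other 8 genes.

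**Figure D2:**
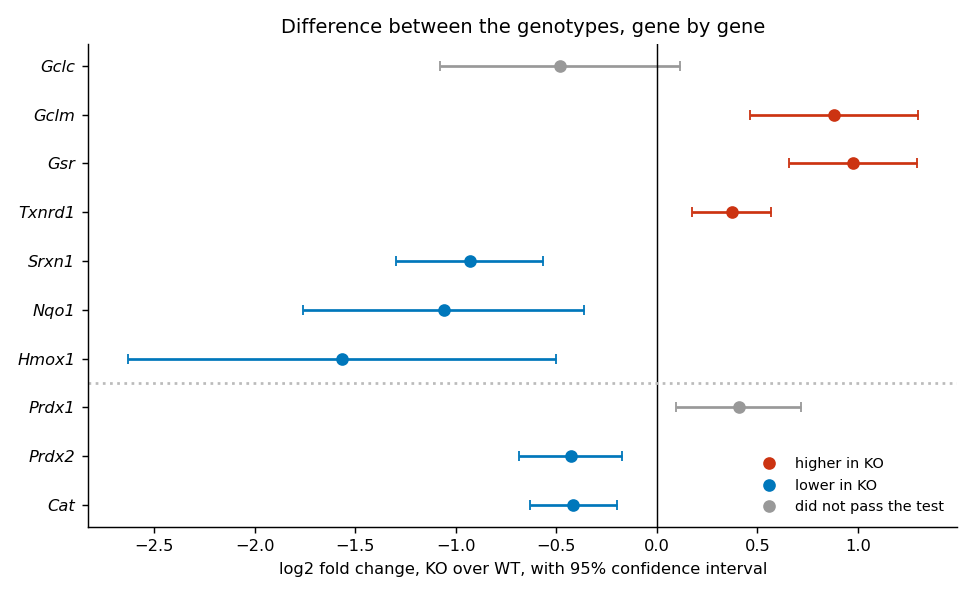
The log2 fold change of each gene, KO over WT, with its 95% confidence interval from limma, NRF2 targets above the dotted line and peroxide-removing enzymes below it. Values run from −1.57 in Hmox1 to 0.98 in Gsr.

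Glutathione recycling held the largest rise among the 10 genes. Gsr, glutathione reductase, which uses NADPH to return oxidised glutathione to its reduced form (ENSMUSG00000031584.16, chr8:33652523-33698163, GRCm38, plus strand), gave normalised read counts of 25697, 29634 and 26143 in the WT libraries, while the KO libraries gave 61375, 43146 and 57260. Every KO library was above every WT library, with KO replicate 2 the lowest of the KO group. The means were 27158 ± 2156 and 53927 ± 9561 (SD, n = 3 each), a log2 fold change of 0.98 ± 0.14 (SE) with a limma adjusted p of 0.00298. The call held in all 19 alternatives. Markers of mature neutrophils summed to 101454, 98684 and 65216 in WT replicates 1 to 3 and to 212323, 100327 and 145514 in KO replicates 1 to 3. Of these 8 markers 2 rose and 1 fell (S100a8, S100a9 and Retnlg, named after their values were seen), and none was at 0. S100a8 alone held most of the sum in every library, with means of 55240 ± 12849 in WT and 108470 ± 41014 in KO. Retnlg fell from 4363 ± 608 to 1192 ± 176. Of the 5 markers that did not pass, Camp and Ltf had lower means in KO, and Mmp8, Mmp9 and Cxcr2 had higher means. KO replicate 2 was the lowest KO library in both Gsr and the mature neutrophil marker sum. It was also the lowest KO library in the granulocyte-monocyte progenitor sum. In WT, Gsr was highest in replicate 2 and the mature neutrophil sum in replicate 1. The granulocyte-monocyte progenitor sum had the same order as Gsr in WT, with 1250020, 1480920 and 1353960 in replicates 1 to 3. In KO that sum was highest in replicate 3 and Gsr in replicate 1. Mpo alone held most of the progenitor sum in every library. The part of these markers in the Gsr difference was not tested.

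The subunits of glutamate-cysteine ligase, which carries out the rate-limiting step of glutathione synthesis, differed in their calls: Gclm rose and Gclc did not pass. Gclm, the modifier subunit (ENSMUSG00000028124.15, chr3:122245557-122270732, plus strand), stood at 4594, 4140 and 6142 in WT and at 7289, 9708 and 10321 in KO. The KO libraries all lay above the WT libraries, and the means were 4959 ± 1049 and 9106 ± 1603 (log2 fold change 0.88 ± 0.18, adjusted p = 0.0119 in limma). That call was lost in 1 of 19 alternatives, without the intensity trend in the variance (adjusted p = 0.0602). Gclc, the catalytic subunit (ENSMUSG00000032350.9, chr9:77754535-77794485, plus strand), stood at 7171, 5688 and 5768 in WT and at 6077, 2852 and 4974 in KO. The groups overlapped through KO replicate 1, and KO replicate 2 was far the lowest. The Gclc log2 fold change of −0.48 had a 95% confidence interval of −1.08 to 0.11 and did not pass (limma adjusted p = 0.227), nor in any alternative. It was −0.17 without KO replicate 2, the low library, and −0.71 without KO replicate 1. The sources used here do not say whether counting used strand. Gclm shares 296 exon bases with Gm17494 on the opposite strand, which rose from 2407 ± 367 to 3408 ± 197 (limma adjusted p = 0.0251), and 244 exon bases with the pseudogene Gm6061, at 1544 ± 824 and 1936 ± 1186.

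The ratio of Gclm to Gclc reads per exon base, which does not depend on library scaling, was 0.384, 0.436 and 0.637 in WT and 0.718, 2.04 and 1.24 in KO. It did not overlap between the groups and was on average 2.74 times as high in KO, from 0.486 ± 0.134 to 1.33 ± 0.665 (SD, n = 3 each). The exact two-sided permutation p of 0.1 is the smallest that 3 against 3 libraries can give. This ratio, and the one of Prdx1 to Srxn1 below, were chosen after the values were seen.

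**Figure D3:**
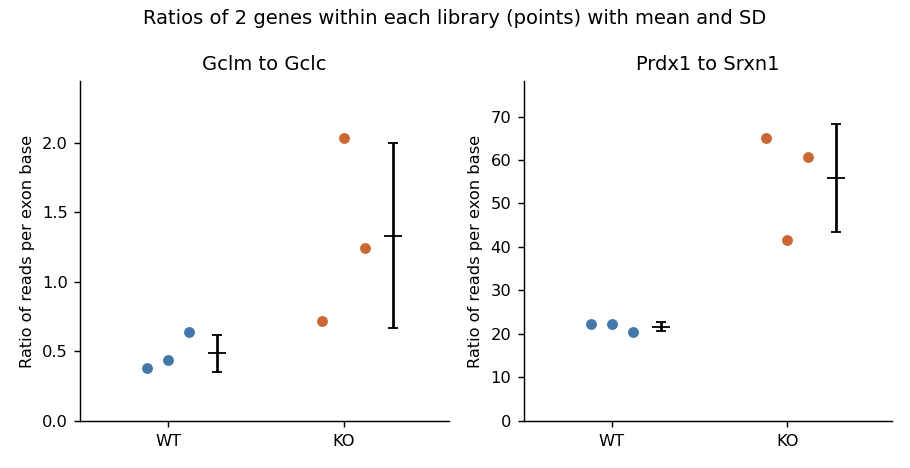
Ratios of reads per exon base within each library, Gclm to Gclc on the left and Prdx1 to Srxn1 on the right (vertical axes from 0), with points for the 3 WT and 3 KO libraries and bars for mean and SD. All KO libraries lie above all WT libraries in both panels, and KO replicate 2 has the highest Gclm to Gclc ratio, 2.04, and the lowest Prdx1 to Srxn1 ratio of the KO group, 41.7.

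Among the enzymes that spend NADPH or mend other redox enzymes, the directions were mixed. Txnrd1, the cytosolic thioredoxin reductase, a selenoprotein (ENSMUSG00000020250.10, chr10:82833951-82897712, plus strand), had 6825, 7232 and 7536 in WT and 8667, 9700.1 and 9613 in KO. The groups were apart and the spread within each was small, with means of 7198 ± 357 and 9327 ± 573 (log2 fold change 0.37 ± 0.08, limma adjusted p = 0.0175). The call was lost in 6 of 19 alternatives: without KO replicate 3, WT replicate 1 or WT replicate 2 (adjusted p of 0.0816, 0.0511 and 0.0517), without the intensity trend (0.0913), with quantile normalization (0.0829) and with all libraries scaled to one total (0.0706, where the gene's log2 fold change was 0.23 and the median of all genes −0.16). Srxn1, sulfiredoxin, which reactivates peroxiredoxins whose active cysteine has been overoxidised (ENSMUSG00000032802.8, chr2:152105516-152111376, plus strand), went the other way. It had 866, 701 and 845 in WT and 379, 458 and 425 in KO. The groups did not overlap, and KO kept 52.3% of the WT level, with means of 804 ± 89.5 and 421 ± 39.3 (log2 fold change −0.93 ± 0.16, limma adjusted p = 0.00594). The Srxn1 call held in all 19 alternatives.

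Nqo1, a quinone reductase often used as a reporter of NRF2 activity (ENSMUSG00000003849.8, chr8:107388225-107403206, minus strand), was low in both groups, with 168 to 564 recovered reads in a library. Its normalised read counts were 399, 278 and 534 in WT and 248, 165 and 158 in KO. The lowest WT library, replicate 2, and the highest KO library, replicate 1, lay close together without overlap. The means were 403 ± 128 and 190.2 ± 49.8, a log2 fold change of −1.06 ± 0.30 with a limma adjusted p of 0.0394. Leaving out KO replicate 2, KO replicate 3, WT replicate 1 or WT replicate 3 ended the call (adjusted p of 0.0858, 0.125, 0.101 and 0.114), and so did 4 other alternatives.

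Hmox1, heme oxygenase, which opens the heme ring and is abundant in macrophages that clear red cells (ENSMUSG00000005413.8, chr8:75093621-75100589, plus strand), showed the widest spread. It had 328, 1013 and 521 in WT replicates 1 to 3 and 114, 263 and 219 in KO replicates 1 to 3. No KO library reached the lowest WT library, and the means were 621 ± 354 and 199 ± 76.9 (log2 fold change −1.57 ± 0.46, limma adjusted p = 0.0437). The call was lost without KO replicate 1, KO replicate 3, WT replicate 2 or WT replicate 3 (adjusted p of 0.09998, 0.0871, 0.110 and 0.0904) and in 4 other alternatives. Of the 10 macrophage markers listed, 6 were lower, 0 higher and 4 did not pass, and none was at 0. Their sums were 9374, 13409 and 7824 in WT replicates 1 to 3 and 4670, 4830 and 4881 in KO replicates 1 to 3. WT replicate 2 was the highest WT library and KO replicate 1 the lowest KO library in both Hmox1 and this sum. The other libraries differed in order, and the KO sums lay close together. Vcam1 alone held most of the sum in every library, with means of 6379 ± 1872 in WT and 3791 ± 369 in KO. Within KO, Vcam1 was highest in replicate 1, at 4120, 3392 and 3861 in replicates 1 to 3. The part of these markers in the Hmox1 difference was not tested.

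Of the peroxide-removing enzymes, Prdx2 and Cat fell and Prdx1 did not pass. Prdx1, a cytosolic peroxiredoxin that reduces hydrogen peroxide with thioredoxin (ENSMUSG00000028691.12, chr4:116685544-116700822, plus strand), had 20919, 16809 and 18630.2 in WT and 26667, 20582 and 27803 in KO. KO replicate 2 lay below WT replicate 1, so the groups overlapped. The means were 18786 ± 2059 and 25017 ± 3883, and the log2 fold change of 0.41 ± 0.13 (95% confidence interval 0.10 to 0.72, not adjusted for the number of genes) did not pass over all genes (limma adjusted p = 0.0652). It passed in 4 of 19 alternatives, among them the fit without KO replicate 2 (0.54, limma adjusted p = 0.0145) and DESeq2 on the recovered reads (adjusted p = 0.0230). Prdx2, the peroxiredoxin most abundant in red cells (ENSMUSG00000005161.15, chr8:84969587-84974834, plus strand), had 8473, 8996 and 10314 in WT and 6227, 7618 and 6785 in KO. All KO libraries were below all WT libraries, at 74.3% of the WT mean (9261 ± 949 and 6877 ± 700.3, log2 fold change −0.43 ± 0.11, limma adjusted p = 0.0276). Leaving out KO replicate 1, KO replicate 3, WT replicate 2 or WT replicate 3 ended that call (adjusted p of 0.0716, 0.0930, 0.0638 and 0.0776), as did the fit without the intensity trend (0.110).

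Cat, catalase, which splits hydrogen peroxide without a reducing partner (ENSMUSG00000027187.10, chr2:103453849-103485160, minus strand), resembled Prdx2. Its values were 7564, 8608 and 8686 in WT and 5843, 6697 and 6098 in KO. The groups did not overlap, and KO kept 75.0% of the WT level, with means of 8286 ± 626 and 6213 ± 438 (log2 fold change −0.41 ± 0.09, limma adjusted p = 0.0177). The call was lost without KO replicate 3, WT replicate 2 or WT replicate 3 (adjusted p of 0.0730, 0.0611 and 0.0562) and without the intensity trend (0.0870). Red cell precursors hold much Prdx2 and Cat, and of 12 erythroid markers 11 were lower, 0 higher and none at 0, with sums of 52367 to 58909 in WT and 11781 to 13140 in KO. Their part in the fall of Prdx2 and Cat was not tested. Prdx2 shares 173 exon bases with Junb and 177 with Rnaseh2a on the opposite strand, at 12386 ± 2888 and 13564 ± 1313 for Junb, and 3679 ± 96.9 and 3695 ± 64.4 for Rnaseh2a, in WT and KO. Neither passed the test.

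Prdx1 and Srxn1, the enzyme that repairs it, were also set against each other within each library. The ratio of Prdx1 to Srxn1 reads per exon base was 22.4, 22.2 and 20.4 in WT and 65.1, 41.7 and 60.7 in KO. Every KO library exceeded every WT library, at 21.7 ± 1.08 in WT and 55.8 ± 12.5 in KO, or 2.58 times as high, with the same smallest exact permutation p of 0.1.

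The stretches upstream of the transcription starts are shown here because 4 of the 10 genes hold the core of an antioxidant response element near their start, and these 4 include genes that were higher, lower and neither. RefSeq promoter windows (GRCm38.p6, 250 bases before to 50 after a start) were matched for 7 of the 10 genes, in 9 windows; Hmox1, Gclc and Gsr were not matched. The core was searched as TGACNNNGC on both strands, and the related AP-1 type site as TGANTCA on both strands, and the 2 can overlap. Capitals mark the matches, and each stretch reads 5′ to 3′ on the gene's strand.
Gclm (higher in KO), chr3:122245383-122245471, plus strand: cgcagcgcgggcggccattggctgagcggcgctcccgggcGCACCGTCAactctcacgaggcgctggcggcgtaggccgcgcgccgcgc
Txnrd1 (higher in KO), second of 3 starts, chr10:82859074-82859162, plus strand: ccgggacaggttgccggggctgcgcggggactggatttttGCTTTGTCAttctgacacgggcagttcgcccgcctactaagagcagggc
Prdx1 (did not pass), chr4:116685426-116685514, plus strand: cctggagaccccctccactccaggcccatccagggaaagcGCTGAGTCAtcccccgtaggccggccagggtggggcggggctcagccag
Srxn1 (lower in KO), chr2:152105382-152105504, plus strand: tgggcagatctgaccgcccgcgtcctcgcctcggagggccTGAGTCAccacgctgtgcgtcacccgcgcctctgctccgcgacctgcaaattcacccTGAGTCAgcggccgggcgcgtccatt

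Counted in bases from the transcription start, the matches of TGACNNNGC begin at −134 in Gclm, −92 in Txnrd1 and −133 in Prdx1, where the match also holds TGAGTCA, an AP-1 type site. Prdx1 has a further AP-1 type site at −237. Srxn1 has 2 AP-1 type sites, at −102 and −45, and its TGACNNNGC match lies at 28 after the start, outside the stretch shown. With the next bases, the site at −45 reads TGAGTCAGC, which departs from TGACNNNGC only in holding G in place of C. The string searched does not count such a site. The windows of Nqo1, Prdx2 and Cat held neither string, and bases outside the windows were not searched. Of all 32851 windows, 12.4% held TGACNNNGC and 7.81% held TGANTCA, against 4 and 2 of the 9 windows of these genes. A match is a run of letters and was not tested for binding.

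Per length, the genes spanned a wide range of levels. In reads per kilobase of exon, scaled to a common library total (RPKM, computed from the recovered reads), the WT means ran from 217 ± 12.9 for Gsr and 136 ± 17.8 for Prdx1 through 69.9 ± 4.26 for Cat, 67.0 ± 6.73 for Prdx2, 36.5 ± 5.61 for Gclc, 22.4 ± 0.962 for Txnrd1 and 17.4 ± 3.78 for Gclm down to 7.76 ± 4.27 for Hmox1, 6.30 ± 0.820 for Srxn1 and 5.75 ± 1.87 for Nqo1 (SD, n = 3 each). The libraries of Cat and Prdx2 overlapped, as did those of Hmox1, Srxn1 and Nqo1, so the order within these sets was not resolved. In KO, Gsr and Prdx1 again led at 392 ± 71.4 and 164 ± 25.4. Gclm was next after Cat and Prdx2, at 28.9 ± 4.75, above Txnrd1 at 26.3 ± 1.34 and Gclc at 24.6 ± 8.88, and the libraries of these 3 genes overlapped.

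Closest to Gsr over the 6 libraries, out of 12065 other genes with a mean of at least 100, were Smn1, Hsd17b11 and 1110038B12Rik, with root mean square differences of 0.067, 0.068 and 0.069 between centred log2 values. Closest to Srxn1 were Akap8l, Bcl11a and Ctnna1, with differences of 0.044, 0.046 and 0.047. Likeness was measured over the same 6 libraries that show the difference between the groups, so it is a description.

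Of 14 regulators of the pathway tested, 1 rose, 2 fell and 11 did not pass. The share called was 21.4%, beside 23.3% of all genes tested and 31.5% of those with a mean of 100 or more. All 14 reach that mean. The list's median was −0.05 (−0.08 without WT replicate 1, −0.02 without KO replicate 1, −0.03 without KO replicate 2 and −0.01 without WT replicate 3). The gene of NRF2, Nfe2l2, had WT and KO means of 7355 ± 609 and 6986 ± 123 (log2 fold change −0.07, limma adjusted p = 0.616), and Keap1, its inhibitor, at 3815 ± 463 and 3866 ± 306 (0.02, adjusted p = 0.912). Bach1, a repressor that competes for the same sites, stood at 627 ± 75.0 and 567 ± 93.1 (−0.15, limma adjusted p = 0.599). Mafg, a small MAF partner of NRF2 and of the BACH proteins, rose from 1943 ± 110 to 3147 ± 436 (0.69, limma adjusted p = 0.00778), a call held in all 19 alternatives. Bach2, a repressor of the same family, fell from 254 ± 69.5 to 97.0 ± 42.8 (−1.43, limma adjusted p = 0.0311), and Btrc, a substrate receptor that can mark NRF2 for degradation, fell from 2452 ± 130 to 1764 ± 203 (−0.48, adjusted p = 0.0234). Bach2 lost its call without KO replicate 1, KO replicate 3, WT replicate 1 or WT replicate 3 (adjusted p of 0.0682, 0.0911, 0.0881 and 0.0966) and Btrc without KO replicate 3, WT replicate 1 or WT replicate 2 (0.0596, 0.0676 and 0.0754). NRF2 is controlled mainly at the protein level, which these data do not measure.

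Other genes known as NRF2 targets also changed in both directions. Of 23 listed, 22 were tested, and 6 rose, 4 fell and 12 did not pass (45.5% called, beside 23.3% of all genes and 31.5% of those with a mean of 100 or more). Among those tested, Ephx1, Cbr3 and Me1 do not reach that mean. The list's median of 0.19 was 0.06 without KO replicate 1, 0.12 without WT replicate 1, 0.05 with scaling to the total and −0.02 with quantile normalization; Gpx2 was at 0 in every library. The enzymes that make NADPH in the pentose phosphate pathway rose: Pgd from 11417 ± 1306 to 22619 ± 2038 (log2 fold change 0.99, limma adjusted p = 0.00145) and G6pdx from 14641 ± 1861 to 25018 ± 626 (0.78). Tkt, the transketolase of the same pathway, rose as well (0.65), and so did the efflux pump Abcc4 (0.71). The glutathione transferase Gstm1, named after its values were seen, rose from 27390 ± 6252 to 48306 ± 9858 (0.82, limma adjusted p = 0.0176). The Gstm1 call was not followed through the alternatives. Slc7a11, the cystine importer that feeds glutathione synthesis, also named after its values were seen, rose from 120 ± 71.7 to 363 ± 37.2 (1.83, limma adjusted p = 0.0360). Slc7a11 had as few as 44 recovered reads in a library. Its log2 fold change was 1.202 without WT replicate 3. It no longer passed without the intensity trend (0.0968) and without KO replicate 1, KO replicate 2, KO replicate 3 or WT replicate 1 (adjusted p of 0.0776, 0.0594, 0.105 and 0.0601). Falls were seen in Blvrb, the biliverdin reductase also typical of red cell precursors, from 1194 ± 69.3 to 414 ± 3.58 (−1.52, limma adjusted p = 0.000643), the epoxide hydrolase Ephx1 (−2.38), the carbonyl reductase Cbr1 (−0.83) and the glutathione transferase Gsta4 (−1.63). Thioredoxin itself, Txn1, also named after its values were seen, did not pass, at 13877 ± 745 in the WT group and 14362 ± 1148 in the KO group. Cbr1 lost its call without the intensity trend (adjusted p = 0.0512) and Gsta4 without WT replicate 2 or WT replicate 3 (adjusted p of 0.0516 and 0.0507).

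**Figure D4:**
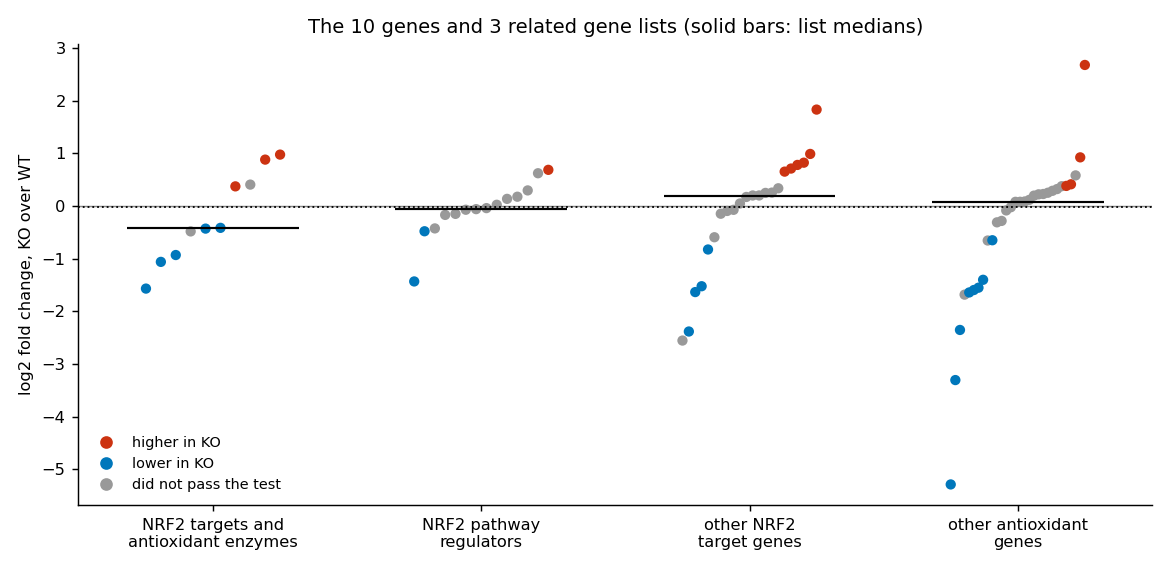
The log2 fold change, KO over WT, of each tested gene in the set of 10, the 14 regulators, the 22 other NRF2 targets and the 30 other antioxidant genes, ordered by value within each column and coloured by the limma call. Solid bars are list medians (−0.42, −0.05, 0.19 and 0.08) and the dotted line is the median of all genes tested, −0.02.

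Of 31 other antioxidant genes listed, 30 were tested, and 4 rose, 8 fell and 18 did not pass. Thus 12 of 30 were called, beside 23.3% of all genes and 31.5% of those with a mean of 100 or more. Among those tested, Chac1, Gpx7, Gpx8 and Ggt1 do not reach that mean. The list's median was 0.08, and Sod3 was at 0 in every library. Among the peroxiredoxins, Prdx3, the mitochondrial one, rose from 7360.4 ± 658 to 9775 ± 366 (log2 fold change 0.41, limma adjusted p = 0.0156), and Prdx4, which works in the endoplasmic reticulum, fell from 2238 ± 155 to 766 ± 98.0 (−1.55, adjusted p = 0.000704). Sod2, the mitochondrial superoxide dismutase, rose (0.38), and so did the methionine sulfoxide reductase Msrb1 (0.92). Chac1, which breaks down glutathione, rose from 24.8 ± 8.88 to 158 ± 25.2 (2.68, limma adjusted p = 0.00358). It was low in WT, with as few as 16 recovered reads in a library. Prdx3 and Sod2 lost their calls in 4 of 19 alternatives each: without KO replicate 3 (adjusted p of 0.0722 and 0.0707), without the intensity trend (0.0836 and 0.0803), with quantile normalization (0.0603 and 0.0673) and with scaling to the total (0.0529 and 0.0548). Sesn1, a sestrin, fell from 4887 ± 638 to 1585 ± 364 (−1.64, limma adjusted p = 0.00145), Txnip, which binds thioredoxin and blocks it, fell to 2878 ± 693 from 8637 ± 1709 (−1.60), and the methionine sulfoxide reductase Msrb3 fell by 2.35 on the log2 scale. Txnip and Chac1 act against thioredoxin and glutathione, so the counts of this list are not a measure of antioxidant capacity. The cytosolic superoxide dismutase Sod1, named after its values were seen, did not pass, at 8366 ± 303 in the WT group and 8873 ± 915 in the KO group. The number of genes in this list that rose ranged from 2 to 11 over the alternatives, with 2 without KO replicate 3. Its median turned to −0.05 with quantile normalization and −0.06 with scaling to the total. It was 0.03 without KO replicate 1, 0.02 without KO replicate 2, WT replicate 1 or WT replicate 2, and 0.12 without WT replicate 3.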

How the data were processed

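The authors deposited 1 file per library with a normalised signal for each gene. The submitters' processing notes list the builds mm8 and mm10 and the tools HISAT2 and StringTie, with no role or version. Counting, strand and multi-mapped reads are not given in the sources used here. All values (100%) were whole multiples of 1 step per library within 0.01 of a read, so reads divided by a size factor were deposited, and division by the step recovered the reads. No 2 libraries agreed within sampling noise (chi-square per degree of freedom 40.96 to 228.2).

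KO was compared with WT by limma 3.58.1 in R 4.3.3 (eBayes with intensity trend) on log2(value + 1), the scale of all fold changes, for genes at 1 or more in at least 3 of 6 libraries. P-values were two-sided and Benjamini-Hochberg adjusted. All 10 genes passed the filter. The procedure was run on simulated data with 200 changed genes, fewer than were called here. That run was a check of the procedure and does not measure the error rate of these calls. Alternatives were edgeR 4.0.16 (2075 genes higher and 2496 lower) and DESeq2 1.42.0 on recovered reads, other scalings, filters, variance settings, a pseudocount of 0.1, a replicate term and each library left out. Scaling to the total was added after seeing the data.

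Genes and lists were chosen with earlier results of these data known. Named are the 10 genes, Ppp2ca, Nfe2l2, Keap1, Bach1, per list the 4 smallest p in each direction, and the 3 genes most alike to the 2 members with the smallest p. Marker lists not described in the text were megakaryocyte (6 of 6 lower), B cell (1 of 4 tested lower) and T and NK cell (2 of 4 tested lower, 1 higher). Coordinates are GRCm38, with exon lengths from GENCODE M21. With blastn 2.17.0, 3 other genes matched Prdx1 and 2 matched Prdx2 at 90% identity over 200 bases. Those with a row in the files, 2 and 1, held 0.0277% and 1.55% of the WT levels of Prdx1 and Prdx2.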

Additional observations from a re-analysis of the deposited data

How the results depend on the processing

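No gene of the 10 reversed in 19 alternatives. Gsr and Srxn1 passed in all 19, Gclm in 18, Cat in 15, Prdx2 in 14, Txnrd1 in 13, Nqo1 and Hmox1 in 11, Prdx1 in 4 and Gclc in 0. Of the 10, those higher (3 in the analysis reported) numbered 1 without the intensity trend and 2 to 4 with a library left out. Those lower (5) numbered 1 without the trend, 3 without a filter, 3 with quantile normalization and 1 to 4 with a library left out. Genes higher over all were 1071 without the trend, 3198 with library quality weights, 1337 with scaling to the total and 993 to 1787 with a library left out, and genes lower 1565 to 2604. With scaling to the total 3510 genes were lower. The replicate numbers did not pair the libraries (correlations of same-numbered deviations −0.05, −0.02 and 0.02). The replicate block gave 1705 genes higher and 2157 lower, with Prdx1 gained (adjusted p = 0.0291) and Nqo1 and Bach2 lost (0.0540 and 0.0644). Keap1, not called in any analysis, turned to −0.034 with quantile normalization, −0.12 with scaling to the total, −0.035 without KO replicate 3 and −0.067 without WT replicate 2, the lowest of a range up to 0.109 with a library left out, and Bach1 to 0.055 with quantile normalization. The causes were not tested. The fewest recovered reads in a library were 106 for Hmox1, 168 for Nqo1 and 354 for Srxn1.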
